A study of Mus musculus with 9 samples.

Results

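Oxidative phosphorylation genes were examined in sorted B cells of the germinal center (GC) from mice with 2, 1 or no floxed Foxo1 alleles. The genes were chosen by symbol: those that begin with Nduf (complex I), Sdha to Sdhd (complex II), Uqcr (complex III), Cox4 to Cox8 (complex IV) or Atp5 (complex V). By this rule 90 of the 18193 genes with a probe set of 1 symbol were members, and 84 of the 90 passed a filter on dim probe sets and were tested among 10331 genes. Complex I gave 44 members (42 tested), complex II 4 (4 tested), complex III 8 (8 tested), complex IV 17 (13 tested) and complex V 17 (17 tested). The 8 Ndufaf genes of complex I encode assembly factors and not subunits, so the symbol rule is wider than the label of subunits.

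Transcripts were measured on 9 Affymetrix mouse expression arrays, 3 per genotype, each with RNA of 1 animal per the labels. The KO animals were FOXO1f/f, the HET animals FOXO1f/+ and the WT animals FOXO1+/+, and every animal, WT included, carried Cg1-Cre, a recombinase expressed from the immunoglobulin gamma 1 locus and active in GC B cells. The mice were 10 weeks old, had received sheep red blood cells on days 0 and 5, and gave spleens on day 12. Cells were sorted as B220 high, PNA high and CD95 high, a gate that does not select for cells in which the floxed allele was recombined.

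The respiratory chain passes electrons from NADH (complex I) and succinate (complex II) through complex III to complex IV, which reduces oxygen. Complexes I, III and IV pump protons across the inner mitochondrial membrane, and complex V, the ATP synthase, uses the gradient to make ATP. Most subunits are encoded in the nucleus and made in the cytosol, and a small number are encoded in mitochondrial DNA. GC B cells divide rapidly and are known to draw on oxidative phosphorylation.

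Foxo1 itself, measured by its brightest probe set, had 983, 1392 and 727 signal units on the KO arrays, 3633, 3581 and 3479 on the HET arrays, and 5432, 5299.9 and 5616 on the WT arrays. The genotypes did not overlap, and the KO mean was 19.0% and the HET mean 65.4% of the WT mean (log2 change of KO over WT -2.45, adjusted p = 2.41e-06). Whether its probes fall inside the floxed segment was not examined. Array median signals were 47.4 to 48.0 on KO, 44.0 to 45.0 on HET and 42.9 to 44.8 on WT arrays, after the authors had scaled every array to the same trimmed mean. The 3' over 5' log2 ratio of the Actb control probe sets was 1.19 ± 0.068 in KO, 1.17 ± 0.068 in HET and 1.16 ± 0.078 in WT (SD, n = 3 each). B cell markers were detected in every group, with Cd22, Cd79b, Ms4a1 and Ptprc above the array median on all 9 arrays. Levels per cell and the number of cells behind each array cannot be told apart, and p-values measure the spread between these animals only.

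RefSeq promoters (GRCm38.p6, 250 bases before to 50 after each start site) were at hand for 74 of the 90 members, 79 promoters in all. They were searched on both strands for the letters GCGCANGCG of nuclear respiratory factor 1 (NRF1), CCGGAAG of ETS factors and GTAAACA of forkhead factors, the family of FOXO1. The NRF1 letters were in 26.6% of the members' promoters, in 14.2% of the promoters of all genes tested and in 6.25% of all promoters in the RefSeq table. The ETS letters were in 24.1% of the members' promoters, 19.2% of those of genes tested and 8.86% of all. The forkhead letters were in 2.53% of the members' promoters (2 of 79, Cox7a2 and Ndufaf1), 2.64% of those of genes tested and 3.65% of all. Among the 14 promoters of members that were lower in KO than in WT, 4 held the NRF1 letters (those of Atp5k, Atp5l and Ndufa5), 5 the ETS letters (those of Atp5e, Atp5k, Atp5l, Atp5md and Sdhb) and 0 the forkhead letters. A match is a run of letters and not a site shown to be bound.

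The promoters shown next are those of the 3 genes that were lower in KO against both WT and HET, Ndufc1 (chr3:51408906-51409205, minus strand), Sdhb (chr4:140961021-140961320, plus strand) and Cox7a2l (chr17:83514284-83514583, minus strand), and of Atp5k (chr5:108434350-108434649, minus strand), the complex V gene with the largest fall. Each is printed 5′ to 3′ along the gene, and capitals mark a match.
Ndufc1: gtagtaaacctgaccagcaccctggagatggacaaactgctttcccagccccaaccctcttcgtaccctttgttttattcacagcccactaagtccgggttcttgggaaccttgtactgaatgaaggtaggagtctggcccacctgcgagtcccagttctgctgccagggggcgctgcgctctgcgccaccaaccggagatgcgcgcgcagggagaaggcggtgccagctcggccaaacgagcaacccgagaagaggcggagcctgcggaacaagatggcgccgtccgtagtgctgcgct
Sdhb: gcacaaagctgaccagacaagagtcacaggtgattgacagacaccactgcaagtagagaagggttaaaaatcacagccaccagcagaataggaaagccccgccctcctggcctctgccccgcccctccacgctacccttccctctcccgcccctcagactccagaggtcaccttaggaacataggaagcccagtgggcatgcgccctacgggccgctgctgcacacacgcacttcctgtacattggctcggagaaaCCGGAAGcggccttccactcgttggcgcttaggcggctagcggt
Cox7a2l: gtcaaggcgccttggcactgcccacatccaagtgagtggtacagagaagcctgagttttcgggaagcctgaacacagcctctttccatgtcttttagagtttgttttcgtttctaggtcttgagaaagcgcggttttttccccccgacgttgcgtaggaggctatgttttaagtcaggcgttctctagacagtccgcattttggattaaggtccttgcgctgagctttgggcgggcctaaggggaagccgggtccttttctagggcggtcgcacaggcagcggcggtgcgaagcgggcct
Atp5k: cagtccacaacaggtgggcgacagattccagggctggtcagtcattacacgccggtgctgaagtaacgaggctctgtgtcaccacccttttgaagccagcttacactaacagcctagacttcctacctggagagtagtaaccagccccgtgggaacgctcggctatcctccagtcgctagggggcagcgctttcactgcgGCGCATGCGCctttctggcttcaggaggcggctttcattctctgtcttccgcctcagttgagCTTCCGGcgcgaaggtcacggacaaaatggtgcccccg
Ndufc1 and Cox7a2l held none of the 3 runs of letters. Sdhb held an ETS match just downstream of the start site. Atp5k held an NRF1 match upstream of the start site, which reads the same on both strands and so counts on each, and an ETS match on the opposite strand downstream of it. No run of letters was common to all 4.

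The comparison of KO with WT asks which oxidative phosphorylation transcripts differ when both Foxo1 alleles are floxed. Of the 84 members tested, 14 (16.7%) were lower in KO and 0 were higher at a Benjamini-Hochberg adjusted p under 0.05 in limma, where 5.85% of all 10331 genes were lower and 6.09% higher. The 14 were Ndufa4, Ndufa5, Ndufb1, Ndufc1, Ndufs4, Sdhb, Uqcr10, Uqcrq, Cox7a2l, Atp5b, Atp5e, Atp5k, Atp5l and Atp5md, so that every complex gave at least 1. The falls were small: the KO mean was 65.3% to 88.5% of the WT mean. Of the 84, 74 (88.1%) had a log2 change below 0, against 47.8% of all genes, and 38 (45.2%) had every KO array below every WT array, against 13.5% of all genes. An unadjusted p under 0.05 was reached by 35 members, and by 25.8% of all genes. The median log2 change was -0.11 over the members and 0.011 over all genes tested.

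Most members were measured by bright probe sets, and genes with bright probe sets as a whole leaned downward in KO. Among the 788 genes at or above the members' median signal of 5132, 68.5% had a log2 change below 0, 7.11% were lower and 2.16% were higher, with a median log2 change of -0.038. The 788 include the members of that brightness. The 14 called members had every KO array below every WT array, which a call on these same arrays nearly fixes. Of the 14, 11 had every KO array below every HET array (13.1% of all genes), a count that uses the same KO arrays. In 3 (Ndufa4, Uqcrq and Atp5l) every HET array was below every WT array (4.89% of all genes). The calls depended on the variance model: eBayes without a mean trend kept Ndufb1 and Sdhb alone. A fit to the KO and WT arrays only kept 8, without Ndufs4, Cox7a2l, Atp5b, Atp5e, Atp5l and Atp5md, and a fit with no filter kept 9, without Ndufs4, Uqcr10, Cox7a2l, Atp5b and Atp5e.

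**Figure D1:**
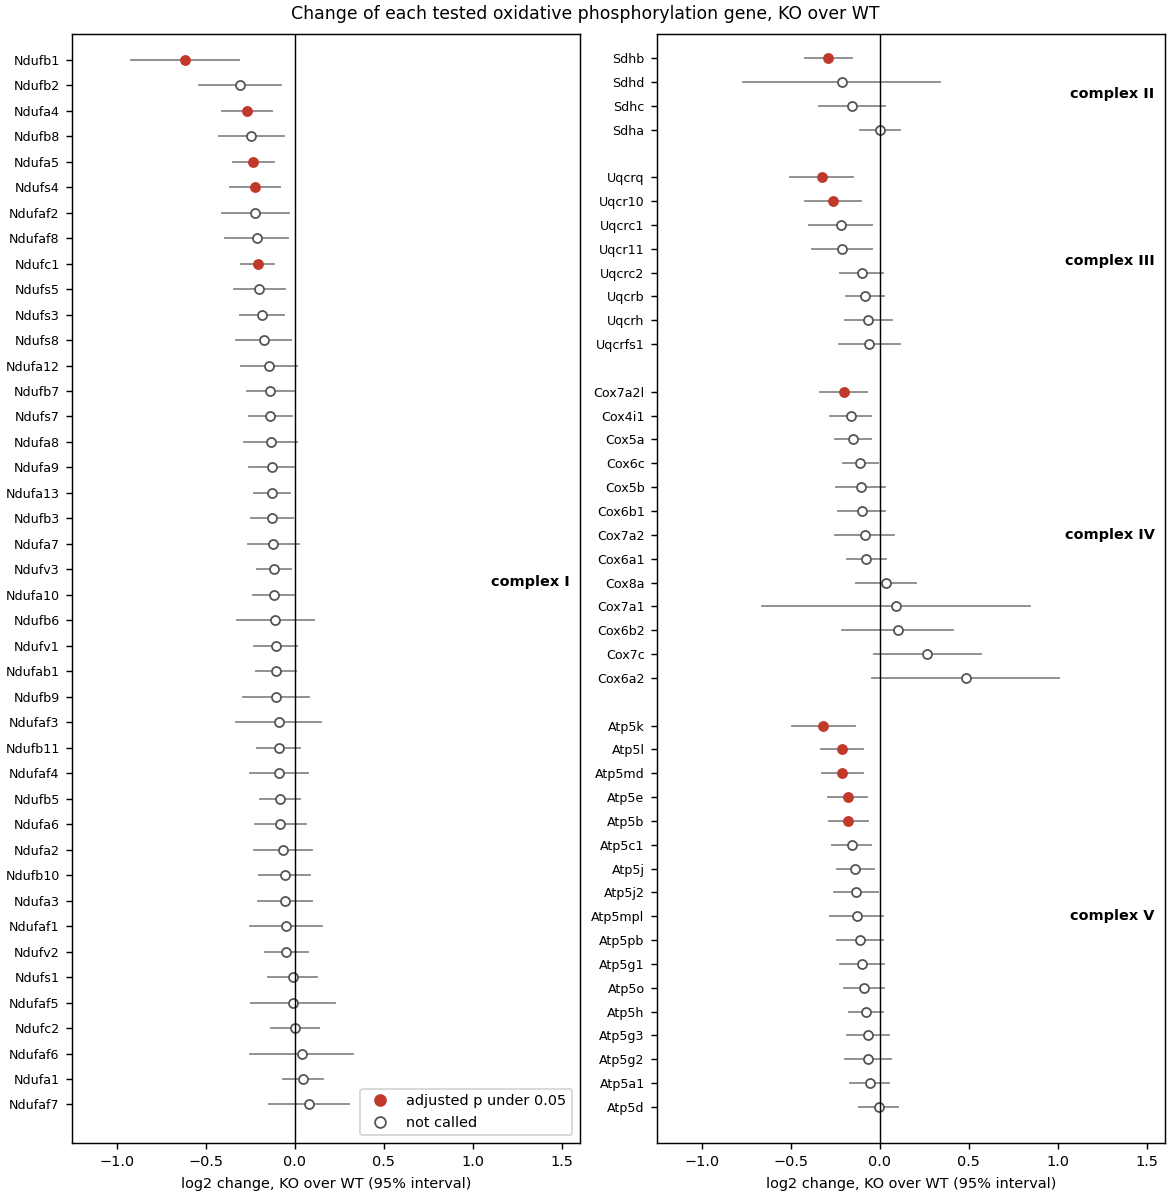
Log2 change of KO over WT for each of the 84 tested genes (point) with its 95% interval (line), grouped by complex and ordered by size. Red marks the 14 genes called lower, 74 points lie below 0, and Cox6a2 lies highest at 0.48 with an interval that includes 0.

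Complex I takes electrons from NADH. Of its 42 tested members, 38 had a log2 change below 0, against 47.8% of all genes, and the median was -0.12. Lower in KO than in WT were 5 (11.9%), against 5.85% of all genes, and 0 were higher. All 5 were among the 28 tested genes classed by symbol as accessory subunits, which surround the catalytic core, but 1 of them, Ndufa4, is now assigned to complex IV. Of the 6 core subunits, which carry the redox centres and the NADH site, 0 passed the test, all had a log2 change below 0, and their median was also -0.12. Of the 8 assembly factors, which build the complex and leave it, 0 passed the test and the median was -0.070, with log2 changes from -0.22 to 0.08.

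Ndufc1, a small accessory subunit of the membrane arm, had 8808, 9490.1 and 9107 on the KO arrays, 10288, 10336 and 10074 on the HET arrays, and 10284, 10632 and 10744 on the WT arrays. Every KO array lay below every HET and every WT array, while the HET and WT arrays overlapped. The log2 change of KO over WT was -0.21 ± 0.043 (SE, adjusted p = 0.00752), and a second Ndufc1 probe set gave -0.25. The call held whichever 1 array was left out (adjusted p up to 0.0391), but not in eBayes without a mean trend (adjusted p = 0.0545).

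Ndufa5, an accessory subunit of the arm that reaches into the matrix, had 6151, 6457 and 5983 on the KO arrays, 6559, 6594 and 7114 on the HET arrays, and 7159, 7086 and 7625 on the WT arrays. The KO arrays lay below all others, and the HET arrays lay between or overlapped WT. Its log2 change was -0.23 ± 0.053 (SE, adjusted p = 0.0123), kept without any 1 array (adjusted p up to 0.0443) but not by eBayes without a mean trend (adjusted p = 0.0596).

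Ndufb1, an accessory subunit of the membrane arm, had 471, 577 and 564 on the KO arrays, 902, 594 and 725 on the HET arrays, and 807, 770.4 and 889 on the WT arrays. KO was lowest, with no overlap with the other arrays, and HET replicate 1 was the highest array of all. The fall was the largest among the members called, with a log2 change of -0.62 ± 0.14 (SE, adjusted p = 0.0126) and a KO mean at 65.3% of the WT mean. Dropping WT replicate 3 or KO replicate 1 ended the call (adjusted p up to 0.0618).

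Ndufa4, first described in complex I and later found in the oxidase, had 3312, 3514 and 3848 on the KO arrays, 3961, 4153 and 3708 on the HET arrays, and 4307, 4158 and 4362 on the WT arrays. The HET arrays lay below the WT arrays and overlapped the KO arrays. Its log2 change was -0.27 ± 0.065 (SE, adjusted p = 0.0188), a call that ended on dropping WT replicate 1 or 3, or KO replicate 1 or 2 (adjusted p up to 0.0756).

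Ndufs4, an accessory subunit needed for a stable NADH-binding part, had 2164, 2220.1 and 2355 on the KO arrays, 2495, 2597 and 2354 on the HET arrays, and 2600.0, 2735 and 2533 on the WT arrays. Every KO array was below every WT array, and KO replicate 3 overlapped HET. Its log2 change was -0.22 ± 0.064 (SE, adjusted p = 0.0392). Leaving out any 1 WT array, KO replicate 1 or 2, or HET replicate 1 ended the call (adjusted p up to 0.144), and the 3 dimmer Ndufs4 probe sets gave log2 changes of -0.11, 0.21 and 0.10, and the average of all its probe sets was not called (adjusted p = 0.986).

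The core subunits did not pass the test. Ndufs3, a core subunit of the matrix arm, came closest, with 5098, 4874 and 5554 on the KO arrays, 6202, 5749 and 5741 on the HET arrays, and 5780.1, 5983 and 5861 on the WT arrays. Its KO arrays lay below all HET and WT arrays, with a log2 change of -0.18 ± 0.057 (SE, adjusted p = 0.0555). Ndufv1, which holds the NADH-binding site, had 4759, 4508 and 4773 on the KO arrays, 4842, 5205 and 5018 on the HET arrays, and 4788, 5018 and 5335 on the WT arrays, and its log2 change was -0.11 (95% interval -0.23 to 0.01). Ndufs1, the largest core subunit of the matrix arm, had a log2 change of -0.01 (95% interval -0.15 to 0.12), and its KO arrays overlapped WT while lying below every HET array. Ndufs8, another core subunit with iron-sulfur clusters, had -0.17 (adjusted p = 0.14). Of the accessory subunits outside the call, Ndufb11, with the brightest probe set of complex I, had a log2 change of -0.09 (adjusted p = 0.342), Ndufb2 of -0.31 (adjusted p = 0.0809), Ndufb8 of -0.24 (adjusted p = 0.0808) and Ndufs5 of -0.20 (adjusted p = 0.0688).

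Complex II, succinate dehydrogenase, works both in the citric acid cycle and in the respiratory chain, and all of its subunits are nuclear. Of its 4 subunits 1 was lower in KO than in WT, where 5.85% of all genes were. Sdhb, the iron-sulfur subunit, had 3159.7, 3208 and 3306 on the KO arrays, 3694, 4103 and 3574 on the HET arrays, and 3793, 3981 and 4049.7 on the WT arrays. Its 3 KO arrays lay close together and below every other array. The log2 change was -0.29 ± 0.061 (SE, adjusted p = 0.0088), with a KO mean at 81.8% of the WT mean. No alternative tried ended the call of KO against WT, with adjusted p up to 0.0374 without 1 array and up to 0.0364 in the other settings.

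The other 3 subunits of complex II did not pass the test. Sdha, the flavoprotein that holds the succinate site, had 5745, 5993 and 5512 on the KO arrays, 5827, 5659 and 5925 on the HET arrays, and 5675, 5535 and 6003 on the WT arrays. The genotypes overlapped throughout, and the log2 change was 0.0030 with a 95% interval of -0.11 to 0.12. Sdhc, a membrane anchor, had a log2 change of -0.15 (95% interval -0.34 to 0.03). Sdhd, the other membrane anchor, had 2282, 3696 and 1799 on the KO arrays, 4082, 2387 and 2896 on the HET arrays, and 3653, 3016 and 2152 on the WT arrays, a spread within genotypes wider than the difference between them (95% interval of the log2 change -0.77 to 0.34). The difference between Sdhb and Sdha was not tested.

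Complex III hands electrons from ubiquinol to cytochrome c. All 8 of its tested members had a log2 change below 0, the median was -0.16, and 2 were lower in KO than in WT. Over all genes 47.8% were below 0 and 5.85% were lower. Uqcrq, a small subunit, had 1602, 1571 and 1853 on the KO arrays, 2016, 2017 and 1773 on the HET arrays, and 2042, 2213 and 2039 on the WT arrays. Every array of KO and of HET was below the WT arrays, and KO replicate 3 overlapped HET. For KO over WT the log2 change was -0.33 ± 0.082 (SE, adjusted p = 0.021). Dropping WT replicate 2 or 3, or KO replicate 1 or 2, ended the call (adjusted p up to 0.0905). A second, much dimmer Uqcrq probe set (mean signal 133) gave 0.64 in the opposite direction.

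Uqcr10, another small subunit, had 4036, 3682 and 3993 on the KO arrays, 4249, 4819.6 and 4371 on the HET arrays, and 4261, 4779 and 5020.4 on the WT arrays. KO was below HET and WT on every array, and HET and WT overlapped. Its log2 change was -0.26 ± 0.072 (SE, adjusted p = 0.0334), a call that ended on dropping WT replicate 2 or 3, or any 1 KO array (adjusted p up to 0.117), and on averaging its probe sets (adjusted p = 0.19). Uqcrc1, a core protein, had 1052, 911 and 1032 on the KO arrays, 1120.1, 1167 and 1074 on the HET arrays, and 1099, 1199 and 1184 on the WT arrays, with KO below all other arrays, a log2 change of -0.22 ± 0.081 (SE) and an adjusted p of 0.104. Uqcrfs1, the Rieske iron-sulfur protein of the catalytic centre, had a log2 change of -0.06 (95% interval -0.23 to 0.11). Of the other 4, Uqcr11 had a log2 change of -0.21 (adjusted p = 0.0988), and Uqcrc2, Uqcrb and Uqcrh had -0.10, -0.08 and -0.06.

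Complex IV, cytochrome c oxidase, reduces oxygen to water. Of its 13 tested members 1 (7.69%) was lower in KO than in WT, 0 were higher, 8 had a log2 change below 0 and the median was -0.084. The share called was near the 5.85% of all genes and the 7.11% of the 788 bright genes. Of all genes 47.8% were below 0, and of the 788 bright ones 68.5%. The gene called was Cox7a2l, which is not a constant part of the oxidase but links complexes III and IV into a supercomplex. Cox7a2l had 5883, 6508 and 6757 on the KO arrays, 7998, 7623 and 7076 on the HET arrays, and 7311, 7392 and 7295 on the WT arrays. The KO arrays lay below every other array and the HET arrays reached above WT. The log2 change was -0.20 ± 0.06 (SE, adjusted p = 0.0465). Dropping any 1 WT array, KO replicate 1 or 2, or HET replicate 2 ended the call (its adjusted p reached 0.168), and so did quantile normalization (adjusted p = 0.096).

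Of the 9 broadly expressed oxidase subunits with a Cox symbol, a count that leaves out Ndufa4, 0 passed the test and 7 had a log2 change below 0. Cox5a, a subunit at the matrix side, had 6689, 6836 and 6648 on the KO arrays, 7438, 7170.3 and 7715 on the HET arrays, and 7221, 7444 and 7722 on the WT arrays, with every KO array below all others, a log2 change of -0.15 ± 0.047 (SE) and an adjusted p of 0.0584. Cox4i1, the common isoform of the subunit that tunes the enzyme to ATP, had 6673, 6394 and 7182 on the KO arrays, 7252, 7501 and 6956 on the HET arrays, and 7767, 7562 and 7339.5 on the WT arrays, with KO below WT, a log2 change of -0.16 (adjusted p = 0.0681) and HET in overlap with both. Cox5b had a log2 change of -0.11 (95% interval -0.24 to 0.03), Cox6c -0.11, Cox6b1 -0.10, Cox7a2 -0.08 and Cox6a1 -0.08. Cox8a had 0.03 (95% interval -0.13 to 0.20). Cox7c, named after its values were seen, had 0.27 (95% interval -0.03 to 0.57). Its probe set was the dimmest of the 9 (mean signal 756). Of the members' probe sets under 1000, only 39.5% had a log2 change below 0.

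Several Cox genes have isoforms that are restricted to heart, muscle, lung or testis. Of the 7 such members, Cox4i2, Cox7b2, Cox8b and Cox8c fell below the filter and were not tested. Cox4i2 had 53.5, 66 and 37.5 on the KO arrays, 5.29, 9.33 and 4.68 on the HET arrays, and 12.1, 22.1 and 25.2 on the WT arrays. Every KO array was above every WT and HET array, but 7 of the 9 values lay below the median of their array. The 3 that were tested had log2 changes of 0.48 (Cox6a2, 95% interval -0.04 to 1.01), 0.10 (Cox6b2) and 0.09 (Cox7a1), none past the test. The complex I relative Ndufa4l2 and, through the 1 probe set that carries its symbol alone, Ndufb4 stayed under the median of each of the 9 arrays.

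Complex V, the ATP synthase, has a catalytic F1 head, a ring of c subunits, a peripheral stalk and small membrane subunits at its dimer interface. All 17 of its members were tested, all 17 had a log2 change below 0, the median was -0.13, and 5 (29.4%) were lower in KO than in WT. Over all genes 47.8% were below 0 and 5.85% were lower. Of the 788 bright genes 68.5% were below 0 and 7.11% were lower. The small membrane subunits gave 3 of the 5 calls out of 5 tested, the F1 head gave 2 out of 5, and the 3 c-ring and 4 peripheral stalk genes gave 0.

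Atp5k, the small membrane subunit e, had 4803, 5084 and 5036 on the KO arrays, 6201, 5983 and 5786 on the HET arrays, and 5617, 5803 and 7282 on the WT arrays. The KO arrays lay below all others, and WT replicate 3 stood well above the other WT arrays. The change was -0.32 ± 0.082 in log2 units (SE, adjusted p = 0.0251), with a KO mean at 79.8% of the WT mean. Dropping KO replicate 1 or 2 ended the call (adjusted p up to 0.0825).

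Atp5l, the small membrane subunit g, had 3733, 3999 and 4199 on the KO arrays, 4486, 4371 and 4358 on the HET arrays, and 4501, 4556 and 4744 on the WT arrays. Its genotypes lay in the order KO, HET and WT with no overlap. The log2 change was -0.21 ± 0.055 (SE, adjusted p = 0.0263), and the call ended on dropping any 1 WT array or KO replicate 1 or 2 (adjusted p up to 0.1).

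Atp5md, also called Usmg5 or DAPIT, is a small subunit tied to synthase dimers. It had 7267, 7282 and 8098 on the KO arrays, 8252, 8490.3 and 8443 on the HET arrays, and 8503, 8489.8 and 9188 on the WT arrays, and KO was below HET and WT on every array. Its log2 change was -0.21 ± 0.054 (SE, adjusted p = 0.0234), and the call ended on dropping WT replicate 3, or KO replicate 1 or 2 (adjusted p up to 0.0901). The remaining small membrane subunits, Atp5j2 and Atp5mpl, both had a log2 change of -0.13 and did not pass the test (adjusted p = 0.166 and 0.256).

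In the F1 head, Atp5b, the catalytic beta subunit, had 6174, 6076 and 6586 on the KO arrays, 6988, 6899 and 7096 on the HET arrays, and 6889, 6893 and 7505 on the WT arrays. KO lay below all other arrays, and HET and WT overlapped. Its log2 change was -0.18 ± 0.051 (SE, adjusted p = 0.043), and the call was kept in only 1 of the 9 fits without an array, that without KO replicate 3 (adjusted p up to 0.141). Atp5e, the epsilon subunit, had 6279, 6383 and 6584 on the KO arrays, 7029.8, 6849 and 6948 on the HET arrays, and 6988, 7098 and 7736 on the WT arrays, with KO below all others and a log2 change of -0.18 ± 0.05 (SE, adjusted p = 0.0346). Dropping WT replicate 2 or 3, or KO replicate 1 or 2, ended this call (adjusted p up to 0.108). Atp5a1, the alpha subunit that pairs with beta, had 11628, 11620.2 and 12008 on the KO arrays, 12659, 12301 and 11961 on the HET arrays, and 11805, 11676 and 13230.0 on the WT arrays. Its genotypes overlapped, with a log2 change of -0.06 (95% interval -0.17 to 0.05), and Atp5c1, the gamma subunit, had -0.16 (adjusted p = 0.0639).

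The c subunits of the rotor are made from 3 genes that encode the same mature protein. Atp5g1 had a log2 change of -0.10 (95% interval -0.23 to 0.02), Atp5g2 of -0.07 (95% interval -0.19 to 0.06) and Atp5g3 of -0.07 (95% interval -0.18 to 0.05). Of the 4 peripheral stalk genes, Atp5j, coupling factor 6, had 6609, 6222 and 6735 on the KO arrays, 7119, 7018 and 6882 on the HET arrays, and 6932, 7146 and 7435 on the WT arrays, with KO below all others, a log2 change of -0.14 and an adjusted p of 0.09.

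**Figure D2:**
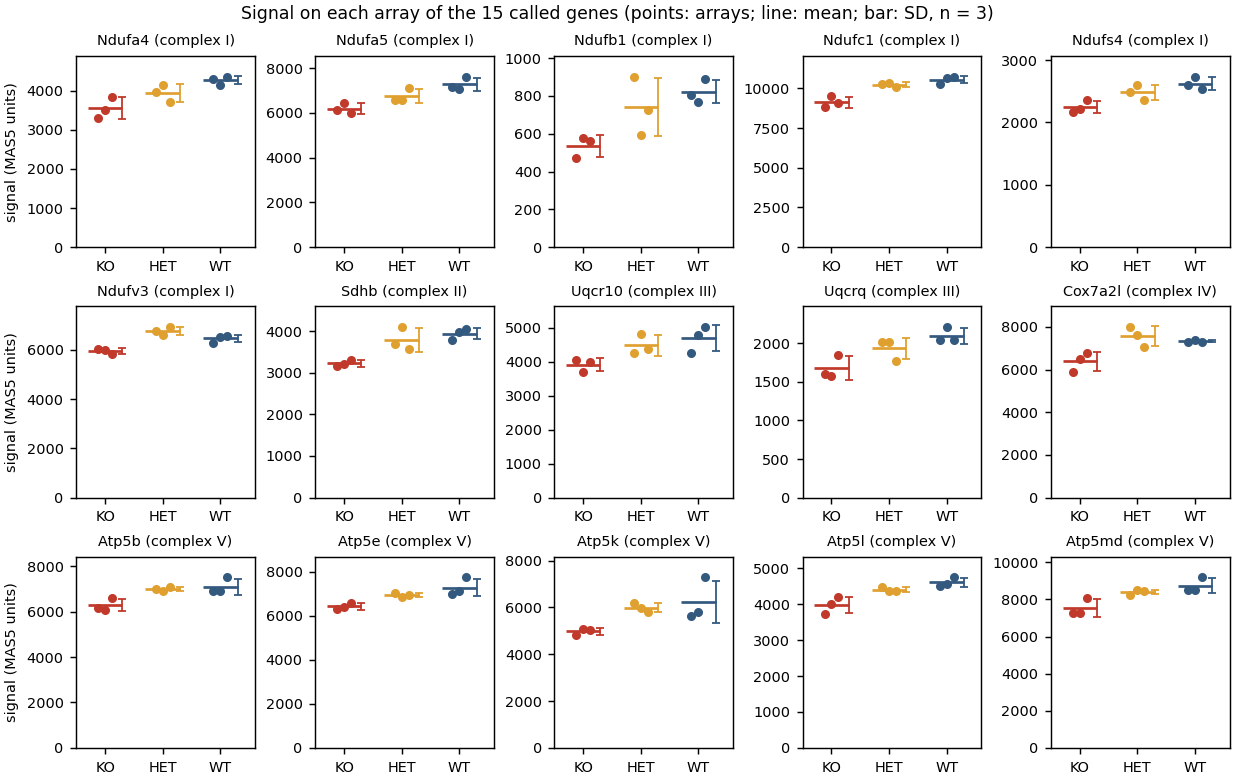
Signal in MAS5 units (linear axis from 0) on each array of the 15 genes called in KO vs WT or KO vs HET, with KO left of HET and WT. Points are arrays, lines are means and bars are SD (n = 3), and in each of the 15 panels the 3 KO points lie below the 3 WT points. The genes were chosen by calls on these same arrays, which favours such a separation.

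The comparison of KO with HET asks about the second floxed allele. Of the 84 members, 4 (4.76%) were lower in KO than in HET and 0 were higher, near the 4.45% lower and 4.56% higher of all genes (9.01% in either direction). An unadjusted p under 0.05 was reached by 25 members, and by 23.2% of all genes. By sign, 77 (91.7%) were below 0, against 47.8% of all genes, and 37 (44.0%) had every KO array below every HET array, against 13.1% of all genes. The median was -0.10. Of the 788 genes with probe sets at least as bright as the members' median, 70.6% were below 0, 5.2% were called lower and 1.27% higher. These KO arrays are the ones set against WT as well, so the results of KO against HET and of KO against WT are not independent.

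Cox7a2l was lower in KO than in HET with a log2 change of -0.25 ± 0.06 (SE, adjusted p = 0.0238), beside -0.20 against WT. Ndufc1 had -0.16 ± 0.043 (SE, adjusted p = 0.033) against HET and -0.21 against WT, and Sdhb had -0.23 ± 0.061 (SE, adjusted p = 0.0345) against HET and -0.29 against WT. The remaining gene was Ndufv3, an accessory subunit of the NADH-binding part. Ndufv3 had 6048, 5987 and 5841 on the KO arrays, 6755, 6624 and 6932 on the HET arrays, and 6291, 6517 and 6581 on the WT arrays. Its HET arrays lay above all WT arrays and its KO arrays below them, and the log2 change was -0.18 ± 0.045 (SE, adjusted p = 0.0233) against HET and -0.12 (adjusted p = 0.117) against WT. None of the 4 calls held in all 9 fits that drop an array. Cox7a2l lost its call on dropping KO replicate 1, HET replicate 1 or HET replicate 2 (adjusted p up to 0.0937), and Ndufv3 on dropping KO replicate 2 or 3 or any 1 HET array (adjusted p up to 0.0868). Ndufc1 lost it on dropping KO replicate 1 or 3 or any 1 HET array (adjusted p up to 0.121), and Sdhb on dropping any 1 KO array, WT replicate 2, or HET replicate 1 or 2 (its adjusted p reached 0.139). In eBayes without a mean trend 0 of the 4 passed (adjusted p of 0.0828 to 0.125), and by quantile normalization Sdhb alone did.

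The comparison of HET with WT asks about a single floxed allele, and 0 of the 84 members were called in limma, lower or higher. At an unadjusted p under 0.05 there were 2, Ndufab1 (log2 change -0.13) and Ndufaf4 (-0.19), both named after their values were seen, and over all genes 1 was called (0.00968%) and 435 of 10331 had an unadjusted p under 0.05 (4.21%). By sign, 53 (63.1%) were below 0, against 49.2% of all genes and 48.4% of the 788 bright ones, with a median of -0.027 that was 0.0090 without WT replicate 3. Every HET array lay below every WT array in 5 members, Ndufa4, Uqcrq, Atp5l, Ndufab1 and Ndufaf4, and over all genes in 4.89%.

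Set against the midpoint of KO and WT on the log2 scale, HET departed in 0 of the 84 members (0.997% of all genes were called) and in 3 at an unadjusted p under 0.05 (10.8% of all genes), namely Cox7a2l, Ndufaf4 and Ndufv3. The HET value was above the midpoint in 70 of the 84, in 49% of all genes and in 68.3% of the 788 bright ones. In Sdhb the KO mean was 81.8% and the HET mean 96.2% of the WT mean. The shares were 86.6% in KO and 97.0% in HET for Ndufc1, and 79.8% in KO and 96.1% in HET for Atp5k.

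**Figure D3:**
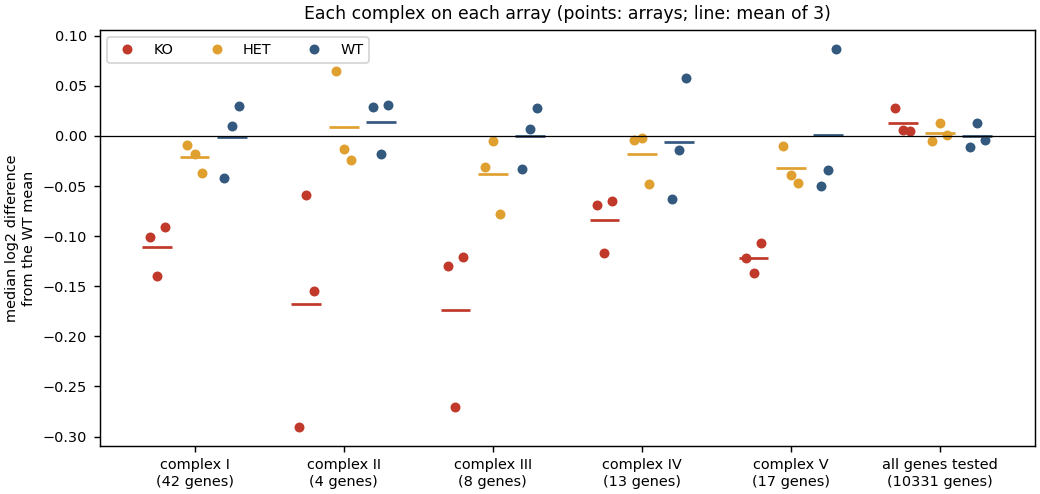
Median over the tested genes of each complex of the log2 difference from the gene's WT mean (vertical axis), for each array (points) and the mean of 3 arrays (lines), with all 10331 genes at the right. The KO points lie below the HET and WT points in each of the 5 complexes, by little in complex IV, and complex II, with 4 genes, spreads most among the KO arrays.

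By array, the median log2 difference of complex I from the WT mean was -0.11 ± 0.026 in KO, -0.021 ± 0.014 in HET and -0.00078 ± 0.037 in WT (SD, n = 3 each). For complex III it was -0.17 ± 0.084 in KO, -0.038 ± 0.037 in HET and 0.00034 ± 0.031 in WT. Complex V had -0.12 ± 0.015 in KO, -0.032 ± 0.019 in HET and 0.00099 ± 0.075 in WT. Complex IV lay at -0.084 ± 0.029 in KO, -0.018 ± 0.026 in HET and -0.0064 ± 0.061 in WT, and complex II at -0.17 ± 0.12 in KO, 0.0094 ± 0.048 in HET and 0.014 ± 0.028 in WT. The KO and WT arrays did not overlap in any of the 5 complexes, and the differences between complexes were not tested.

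The WT arrays were not alike. WT replicate 3 was the highest of the 9 arrays in 43 of the 84 members (51.2%), against 12.7% of all genes. The 788 bright genes as a whole also stood higher on that array. Their median log2 difference from the WT mean was 0.073 on WT replicate 3, and -0.036 and -0.037 on WT replicates 1 and 2. For the members the same medians were 0.049, -0.046 and -0.010. Without WT replicate 3, 4 members were lower in KO than in WT, against 388 of 10271 genes, and the median was -0.087. Without KO replicate 1 there were 3 called, against 459 of 10265 genes, with a median of -0.12. Without KO replicate 2 there were 4, against 476 of 10259 genes, with a median of -0.10. In each of these fits the share of members called was near that of all genes. Without WT replicate 1 or 2 there were 9 and 7, against 461 of 10292 and 367 of 10281 genes. Without KO replicate 3 there were 19, against 570 of 10274 genes.

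The scaling of the arrays moved the number of members called. When each array was centred on the median of all its probe sets, the median of all genes moved from 0.011 to -0.11, 54 members were lower in KO than in WT and their median was -0.23. Over all genes that setting called 398 higher and 1683 lower, in place of 629 higher and 604 lower. Centring on the kept probe sets alone gave 17 members and a median of -0.14, with the median of all genes at -0.022 and 495 genes higher and 716 lower. Quantile normalization gave 12 members and a median of -0.088, with 570 genes higher and 646 lower. In every one of these scalings 0 members were higher in KO.

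Many members were measured by several probe sets. Of the 49 members with more than 1 kept probe set, 33 had all of them lower in KO than in WT, 15 had both signs and 1 had all higher. The sign followed the brightness of the probe set: 64 of 67 probe sets of signal 5000 or more (95.5%) and 58 of 59 from 1000 to 5000 (98.3%) had a log2 change below 0, but 15 of 38 under 1000 (39.5%). Over all kept probe sets the shares below 0 were 68.4%, 52.7% and 41.2% in the same 3 ranges. Tested one by one, 19 of the 164 probe sets of members were called lower and 2 higher. Those called lower were 8 of 67, 10 of 59 and 1 of 38 by range, against 68 of 1102, 368 of 5668 and 369 of 12709 over all kept probe sets. The 2 called higher lay under 1000, where 508 of the 12709 were called higher. The dimmer probe sets that were called higher in KO belonged to Sdha (mean signal 139, log2 change 0.88, adjusted p = 0.0302) and Atp5c1 (mean signal 729, log2 change 0.46, adjusted p = 0.00957), while the brightest probe set of Sdha gave 0.0030 and that of Atp5c1 -0.16. The probe sets of Ndufs8 ranged from -0.47 (adjusted p = 0.00605) to 0.39 (adjusted p = 0.372). Only its dimmest probe set (mean signal 157) had a log2 change above 0. What part of each transcript a probe set covers was not analysed here.

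**Figure D4:**
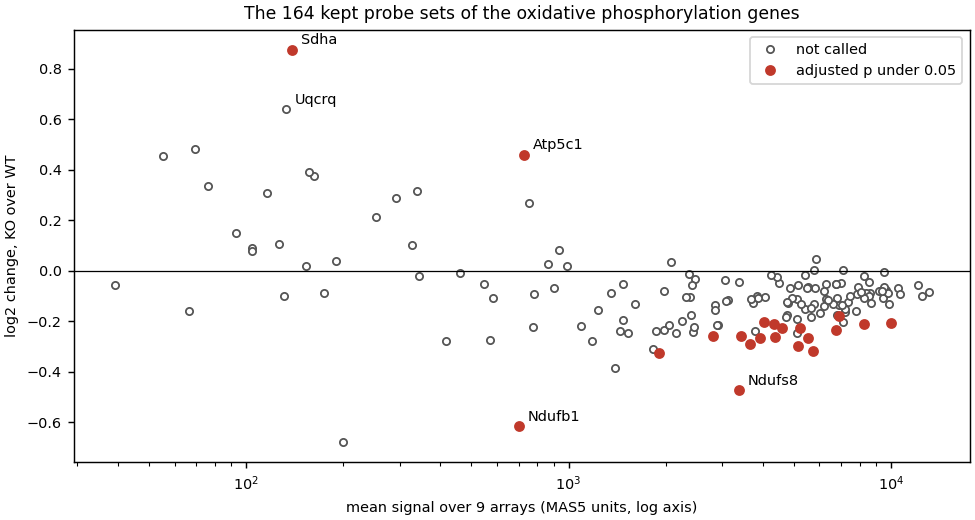
Mean signal over 9 arrays (log axis, MAS5 units) against the log2 change of KO over WT for the 164 kept probe sets of the members, filled where called over all 19479 kept probe sets. Above a signal of 1000 nearly all points lie below 0, while the 2 called higher, of Sdha and Atp5c1, lie under it.

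The same comparison was made for other mitochondrial genes, from lists written from general knowledge. For KO against WT, 5.85% of all genes tested were lower, 6.09% were higher and 47.8% had a log2 change below 0. Of 76 mitochondrial ribosomal proteins, which translate the subunits encoded in mitochondrial DNA, 13 were lower in KO than in WT, 0 were higher, 66 were below 0 and the median was -0.13. Among them Mrpl57 had a log2 change of -0.46 (adjusted p = 0.00398) and Mrps26 of -0.31 (adjusted p = 0.0102). Of 22 tested members of the import machinery (Timm and Tomm genes) 3 were lower and 0 higher, with a median of -0.13, among them Timm23, the inner membrane channel (-0.20, adjusted p = 0.0254), and Tomm40, the outer membrane pore (-0.40, adjusted p = 0.0356). Of 7 carriers and porins 1 was lower, Mpc1 of the pyruvate carrier (-0.36, adjusted p = 0.017), and all 7 were below 0 with a median of -0.080.

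Of 12 enzymes of the citric acid cycle 3 were lower, 0 were higher, 7 were below 0 and the median was -0.012. Fh1, fumarate hydratase, had 4809, 5169 and 4618 on the KO arrays, 6175, 6091 and 6234 on the HET arrays, and 6201, 5851 and 7009 on the WT arrays, with no overlap of KO with the others (log2 change -0.38, adjusted p = 0.0026). Suclg2 (-0.65, adjusted p = 0.00886) and Suclg1 (-0.25, adjusted p = 0.0408), subunits of succinyl-CoA ligase, were the others. Of 39 assembly factors outside the symbol rule, 2 (5.13%) were lower, near the 5.85% of all genes, and 1 was higher. Below 0 were 22, and the median was -0.038. Uqcc2, which assembles complex III, fell with a log2 change of -0.42 (adjusted p = 0.00515), and Sco1, a copper carrier to complex IV, rose with 0.42 (adjusted p = 0.0464). Acad9, a complex I assembly factor, had -1.09 (adjusted p = 0.000268), but another of its probe sets gave 0.29, and on dropping any 1 WT array or HET replicate 1 that one was the brightest and stood for the gene (0.22 to 0.38).

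Of 4 parts of the machinery whose symbols lie outside the rule, 1 was called: Atpif1, the inhibitor of the ATP synthase, had a log2 change of -0.35 (adjusted p = 0.0048), which turned to 0.14 when its probe sets were averaged. Cyc1, cytochrome c1 of complex III, had -0.25 (adjusted p = 0.0762). Of 15 tested regulators of mitochondrial biogenesis 0 were lower and 1 was higher, where 6.09% of all genes were higher, and the median was 0.091. That gene was Twnk, the helicase of mitochondrial DNA (0.32, adjusted p = 0.0358). The single gene of mitochondrial DNA with a probe set, ND5 of complex I, had a log2 change of 0.085 (adjusted p = 0.581), and the other genes of mitochondrial DNA were not analysed here.

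The calls of Mrpl57, Mrps26, Fh1, Suclg2, Uqcc2 and Atpif1 held in each of the 9 fits that drop an array (adjusted p up to 0.0436). Those of Timm23, Tomm40, Mpc1, Suclg1, Sco1 and Twnk were each lost on dropping WT replicate 3 and on dropping KO replicate 2, and some on dropping other arrays (adjusted p up to 0.0819 for Timm23, 0.145 for Tomm40, 0.066 for Mpc1, 0.137 for Suclg1, 0.166 for Sco1 and 0.141 for Twnk). In KO against HET, where 4.45% of all genes were lower and 4.56% higher, 5 (6.58%) of the 76 mitochondrial ribosomal proteins were lower and 0 higher. Of the import genes and of the carriers and porins 0 were called. In the same comparison 1 enzyme of the citric acid cycle was lower, 2 assembly factors were lower and 1 higher, 1 part outside the symbol rule was lower and 1 biogenesis regulator was higher.

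**Figure D5:**
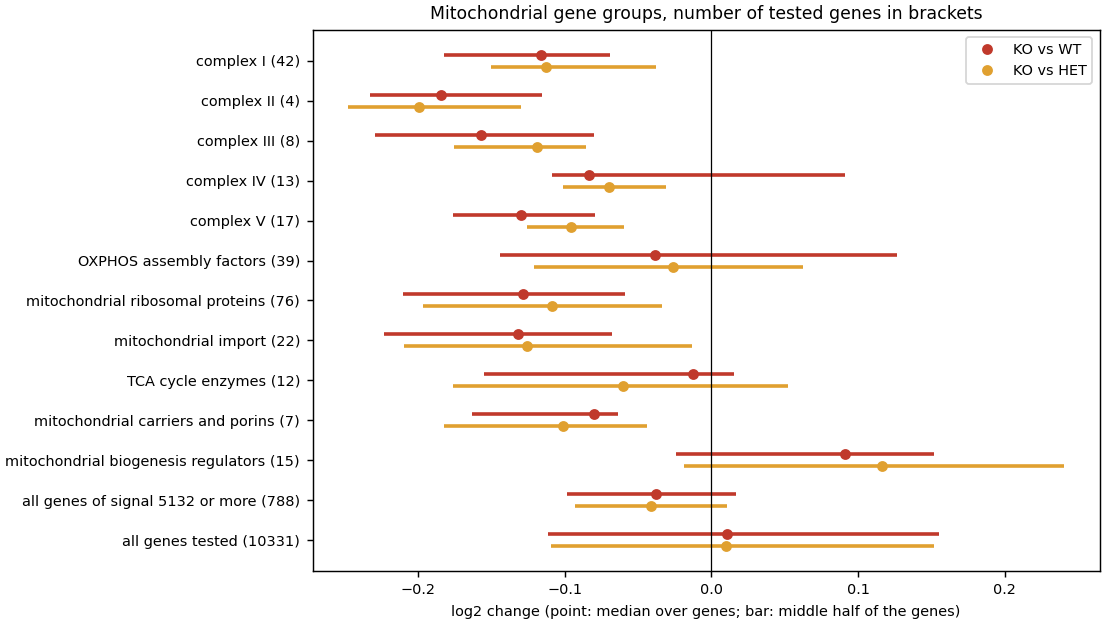
Median log2 change (point) and interquartile range over genes (bar) for each complex and each mitochondrial list, KO vs WT above KO vs HET, with all genes and the 788 genes of signal 5132 or more at the bottom. The medians of the 5 complexes, the ribosomal proteins and the import genes lie between -0.20 and -0.070, and that of the biogenesis regulators above 0.

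Markers of other cell types also differed between the arrays. Over all genes, 6.09% were higher and 5.85% lower in KO than in WT. Of 6 plasma cell markers 4 were higher in KO than in WT (Slpi, Irf4, Prdm1 and Sdc1). Xbp1 and Jchain were not called and had log2 changes slightly below 0, the lowest at -0.057. Tnfrsf17 stayed under the median of each of the 9 arrays and was not tested. The summed signal of the 6 was 25402 to 27796 on KO, 20997 to 22479 on HET and 20319 to 21652 on WT arrays. Of 8 myeloid markers 4 were higher (Csf1r, Lyz2, Mpeg1 and Cd68), with sums over the 8 of 2542 to 3952 on KO, 1526 to 2629 on HET and 1191 to 2100 on WT arrays. Of the 4 not called, 1 had a log2 change below 0, at -1.08. The 3 kept probe sets of Csf1r gave log2 changes from 0.25 to 2.46, and HET replicate 3 (489) was its highest array. C1qa, Cd14, Fcgr1 and Itgam, defining markers of macrophages and monocytes, did not reach the median of any of the 9 arrays, nor did C1qc. Within that low range C1qa had 4.67 to 36.5 on KO, 1.67 to 23.3 on HET and 2.92 to 3.8 on WT arrays, and C1qc had 6.90 to 23.9 on KO, 1.19 to 11.9 on HET and 0.53 to 3.59 on WT arrays. For both genes every KO array was above every WT array, while KO overlapped HET. In the other 3 the KO and WT ranges overlapped. Cd14 had 1.28 to 4.73 on KO and 0.91 to 18.5 on WT arrays, and Itgam 1.77 to 17.3 and 11.1 to 17.9. Fcgr1 had 11.2 to 18.8 on KO and 5.44 to 18.7 on WT arrays. How many of all genes had every KO array above every WT array was not counted. Of 3 T cell markers tested 0 were called (sums of 124 to 173 on KO, 139 to 246 on HET and 143 to 225 on WT arrays), and Cd3d, Cd3g and Cd4 did not reach the median of any array. The 1 erythroid marker tested, Car2, was lower (89 to 165 on KO, 184 to 243 on HET and 200 to 221 on WT arrays), and Hba-a1 was at or below 3.53 on every array.

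Of 7 GC markers 3 were lower in KO than in WT (Gcsam, Neil1 and Rgs13) and 1 was higher (Fas, the CD95 of the sort), with sums of 31553 to 32526 on KO, 36168 to 36984 on HET and 34999.8 to 38286 on WT arrays. Of 6 B cell markers 0 were lower and 1 higher (Ptprc), with sums of 47994 to 49187 on KO, 46655 to 47165 on HET and 44555 to 49666 on WT arrays. The part of these shifts in the values of the oxidative phosphorylation genes was not tested.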

How the data were processed

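Signals of 9 arrays (3 KO, 3 HET, 3 WT) were analysed. The authors deposited linear intensity values (MAS5 signals), 1 for each probe set on each array, processed with MAS5 per the submitters' processing notes (its version is not given). Each array's mean, with the top and bottom 2% of values trimmed, equalled 500. Per the labels' protocols, amplification used a NuGEN kit. The labels give 1 animal per array, although pooled spleen cells are mentioned in the design entry. The sources used here give neither sex, litter nor batch.

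Of 45101 probe sets, 34945 had 1 gene symbol in the platform annotation, 932 several and 9160 none beside 64 controls. By Entrez identifier 34741 single-symbol probe sets had a RefSeq gene, and 0 symbols changed. The 90 members had 179 probe sets. The 8 symbols of the rule with shared probe sets only, among them Ndufa11 and Ndufs6, were not analysed here. A probe set was kept where it reached its array's median on at least 3 of 9 arrays (19479 kept), and the kept probe set with the highest mean stood for a gene.

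Values were log2(signal + 2.09), the offset being the 10th percentile of all signals, so changes of dim genes are understated. Models over all 9 arrays were fitted with limma 3.58.1 (lmFit, eBayes with trend) in R 4.3.3, two-sided, with Benjamini-Hochberg adjustment over 10331 genes, and every adjusted p is limma's. Levels were not compared between genes. The number of arrays limits the precision. The fit was tested first on simulated data of 10331 genes, with 50 genes lowered in KO at each size of change. It called 2% of them at a log2 change of -0.2, 16% at -0.3, 64% at -0.6 and 92% at -1. Fewer genes changed there than were called in these data. A small change can thus go uncalled, and a member not called is not shown to be unchanged. The 23 alternatives concern scaling, offset, filter, probe set, variance model, samples, a term for Xist (above its array's median on 2 arrays of each genotype) and each array left out.

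The members, lists and tests were chosen with earlier results of these data known. Genes were named by rule: each member called in any pairwise contrast, for each complex the 4 next by adjusted p and the brightest, core members, pairs of paralogs, the 3 with the largest disagreement of probe sets, and up to 4 genes of each list. Others are said to be named after their values were seen. Markers of cell types named beyond those 4 of a list lie outside the rule. Lists were assembly factors, parts outside the symbol rule, citric acid cycle enzymes, carriers and porins, biogenesis regulators, mitochondrial ribosomal proteins, import genes, mitochondrial DNA genes, and markers of B, GC, plasma, T, myeloid and erythroid cells.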

Additional observations from a re-analysis of the deposited data

How the results depend on the processing

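With 3 arrays a genotype, the number of members called moved with the setting. The 14 members lower in KO than in WT became 54 when arrays were centred on the median of all probe sets, 9 with no filter, 8 with only the 2 groups compared, 2 in eBayes without a mean trend, and 3 to 19 when 1 array was left out. Counted over all genes, those lower were 1683 of 10331 with that centring, 495 of 18193 with no filter and 526 of 10131 with only the 2 groups. They were 434 of 10331 without a mean trend and 367 to 583 when 1 array was left out. A member was called higher in KO than in WT in 2 settings, averaged probe sets (1) and without suffixed probe sets (1). The 4 members lower in KO than in HET became 30 with that centring, 2 by quantile normalization, 1 with no filter, 0 without a mean trend and 0 to 8 without 1 array, and 1 (no filter) or 2 (without suffixed probe sets) were called higher. Among all genes, those lower than HET were 490 of 10331 by quantile normalization, 377 of 18193 with no filter and 302 of 10331 without a mean trend. HET departed from the midpoint in 1 member with no filter. The median of the members moved to -0.23 (KO vs WT) and -0.20 (KO vs HET) with centring on all probe sets and to -0.14 (KO vs HET) with centring on kept probe sets, an alternative chosen after seeing the data. The median of HET vs WT ran from -0.051 to 0.0090 without 1 array. Over all genes, KO vs WT gave 629 higher and 604 lower, against 402 and 367 without WT replicate 2, and 381 and 388 without WT replicate 3. KO vs HET gave 471 higher and 460 lower, against 260 and 283 without HET replicate 2, and 299 and 312 without HET replicate 3, 293 and 1080 with centring on all probe sets, and 374 and 573 with centring on kept ones.

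Direction turned where a dimmer probe set stood for the gene or entered its mean. Without suffixed probe sets, Atp5c1 had 0.46 (KO vs WT) and 0.38 (KO vs HET), Uqcrq 0.64 (KO vs WT) and 0.70 (KO vs HET), and Atpif1 0.20 (KO vs WT). With the mean of probe sets, Uqcrq had 0.16 and Atpif1 0.14 (KO vs WT). Acad9, KO vs WT, had 0.29 with only the 2 groups compared and -1.16 to 0.38 on dropping 1 array, since another probe set was then brightest where the sign turned. Of the named members' results under alternatives, 1044 kept direction and side of the threshold in KO vs WT, 78 lost the call, 39 gained one and 3 turned, and in KO vs HET the numbers were 1100, 30, 32 and 2. In HET vs WT all 1164 kept theirs. No paired analysis was possible because each sample title carries a number and no number is shared between genotypes.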
